A study of Caenorhabditis elegans with 2 samples.

Results

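The flp, nlp and ins genes of Caenorhabditis elegans encode small secreted peptides: FMRFamide-like peptides, other neuropeptide-like proteins, and insulin-like peptides. They were taken by gene name (flp-, nlp- or ins- followed by a number), leaving out nlp-24 to nlp-34, which are antimicrobial peptide genes of the epidermis. This gave 103 genes out of the 46739 in the deposited table, made up of 31 flp, 33 nlp and 39 ins genes. They were measured in RNA from dissected gonads of adult worms, with 1 library from the wild-type strain N2 and 1 from YBT7, whose genotype is deg-1(huj32) linc-20(huj2) hujCf1. In YBT7 the X chromosome is cut into an internal segment and a linear segment that joins both chromosome ends. The study asked whether X-linked genes are less silenced in such gonads. YBT7 is a single engineered strain that was outcrossed to wild type, and how many gonads entered each library was not given in the sources used here.

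Peptides of these families are made as longer precursors, cut by proprotein convertases, trimmed, often amidated, and released from dense core vesicles. Most flp and nlp genes are known from neurons, where their products act on G protein-coupled receptors to set locomotion, feeding, egg laying and sleep-like states. Insulin-like peptides act on the receptor DAF-2 and are made in neurons, intestine and other tissues. A dissected gonad arm holds germ cells and a thin somatic sheath and no neuron cell bodies.

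The wild-type library held 2873065 counts and the YBT7 library 4525439. The linc-20 gene, whose locus carries deletions in YBT7, had 4 wild-type counts and none in YBT7. The gene deg-1, cut within an intron, had 1 and 3, and these counts are too few to check the labels. The title and genotype name YBT7, although the source label of that library also carries the words wild type. Germline markers matched the labelled tissue: all 18 were detected in both libraries, with sums of 36892 and 50240 raw counts. Scaled to the library totals, the germline sum was lower in YBT7, at 0.865 of the wild-type sum (0.853 to 0.876). Each strain is a single library, so differences cannot be set against a spread between replicates and are given without p-values. Intervals are 95% intervals for the counting of reads alone, so variation between worms and dissections is not in them, and amplified reads may make them too narrow. In such bulk RNA, fewer cells of a type and less RNA per cell cannot be told apart.

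Summed over all 103 genes, with no filter, the peptide genes rose from 628 counts to 2664. Sums are compared as CPM, counts scaled to a library total of 1000000. The sum was 219 CPM in wild type (exact Poisson interval 202 to 236) and 589 CPM in YBT7 (567 to 611), which is 2.69-fold higher (exact conditional interval 2.47 to 2.94). The gene nlp-36 held 56.8% of the wild-type sum and 33.6% of the YBT7 sum. Without it the remaining 102 genes went from 271 to 1770 counts, 4.15-fold in CPM (3.65 to 4.73).

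By family, the 31 flp genes went from 109 to 765 counts, 4.46-fold higher in CPM (3.64 to 5.50). All 33 nlp genes went from 443 to 1699, 2.43-fold higher (2.19 to 2.71), and those other than nlp-36 from 86 to 805, 5.94-fold higher (4.75 to 7.51). The 39 ins genes went from 76 to 200 counts, 1.67-fold higher (1.28 to 2.21). This interval lies below those of the flp genes and of the nlp genes other than nlp-36, but overlaps that of all nlp genes. Whether the families would differ in further libraries was not tested.

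**Figure D1:**
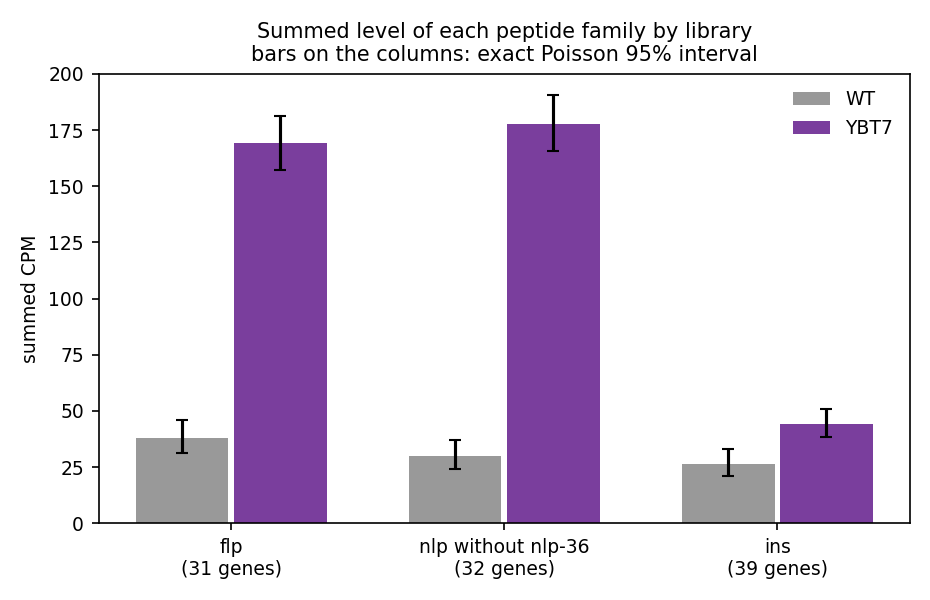
Summed CPM (y axis) for each peptide family in wild type (WT, grey) and YBT7 (purple), with exact Poisson 95% intervals; nlp-36 is left out of the nlp sum. The flp sum stands at 37.9 in wild type and 169 in YBT7, the nlp sum at 29.9 and 178, and the ins sum at 26.5 and 44.2.

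More of the peptide genes were detected in YBT7. Of the 103 genes, 67 had at least 1 count in wild type and 85 in YBT7, and 83 in YBT7 once its counts were thinned to the wild-type total. Counts in YBT7 alone were seen for 19 genes, and in wild type alone for 1, ins-37. Of all 15474 genes with a count, 12356 had a count in wild type and 14188 in YBT7. Genes with counts in YBT7 alone were thus common in general, and the 19 are not read as a trait of peptide genes. No count was found for 17 genes, 12 of them ins genes. For a gene without a count, counting error allows a level of up to 3 counts, which is 1.04 CPM for the wild-type library and 0.663 CPM for YBT7. Among the 86 genes with a count, the normalized count was higher in YBT7 in 78 (90.7%) and lower in 8, beside 53.5% higher over all 15474 genes with a count. These shares are not matched for level, and in a gene with few counts a single read can set the direction. At most 3 wild-type counts were found for 78 of the 103 peptide genes. All 30 detected flp genes were higher, as were 27 of 29 nlp genes and 21 of 27 ins genes. The genes that stood lower were nlp-2, nlp-4, ins-1, ins-5, ins-22, ins-23, ins-35 and ins-37.

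Normalized counts are raw counts divided by a size factor, 0.816 in wild type, 1.22 in YBT7. A gene is here called measured when the mean of its normalized counts is above 5, and called higher or lower when its absolute log2 fold also exceeds 1 plus 5 over the square root of that mean, the rule of the study's methods. Measured genes numbered 49: 23 flp, 20 nlp and 6 ins. The other 54 had at most 5 counts in wild type and 10 in YBT7. Of these, 29 had at least 3 counts in all, 8 had 1 or 2, and 17 had none.

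By this rule 20 of the 49 measured peptide genes were called higher in YBT7 and none lower, beside 9.55% called higher and 1.25% lower of all 8618 measured genes. With 1 library per strain this rule is a limit on size and not a test. The genes called higher were 10 flp and 10 nlp genes and no ins gene. Of the 20, nlp-3, flp-15 and nlp-20 had no wild-type count, so their log2 fold is infinite and exceeds any limit. Against a floor of 3 wild-type counts, nlp-20 would still exceed its limit, but nlp-3 and flp-15 would not. The median log2 fold was 2.17 for the 49 genes, against -0.03 for all measured genes. It was 2.15 for flp, 2.82 for nlp and 1.10 for ins genes. With the 3 genes that had no wild-type count placed at a floor of 3 counts, the median was 2.15 over the 49 genes and 2.72 for nlp genes. Peptide genes are low in these gonads, and low genes reach the mean more easily when they rise. Of all genes with a mean from 5 to 50, 17.1% were called higher and the median log2 fold was 0.42, while 19 of the 47 peptide genes in that range were called higher and their median was 2.17.

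How a gene passed the filter bears on these counts. Of the 49 genes, 33 had a wild-type normalized count of 5 or less and passed through YBT7 alone. Among these 16 were called higher (48.5%), close to the 49.3% of all 957 genes that passed in this way, so the share within that set says nothing particular about peptide genes. The other 16 were above 5 in wild type already. There 4 were called higher, beside 4.58% of all 7661 such genes: nlp-40, flp-14, flp-6 and flp-28. The median log2 fold of the 16 was 1.42, against -0.10 over all genes above 5 in wild type, and ins-5 was the only 1 of them below 0.

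**Figure D2:**
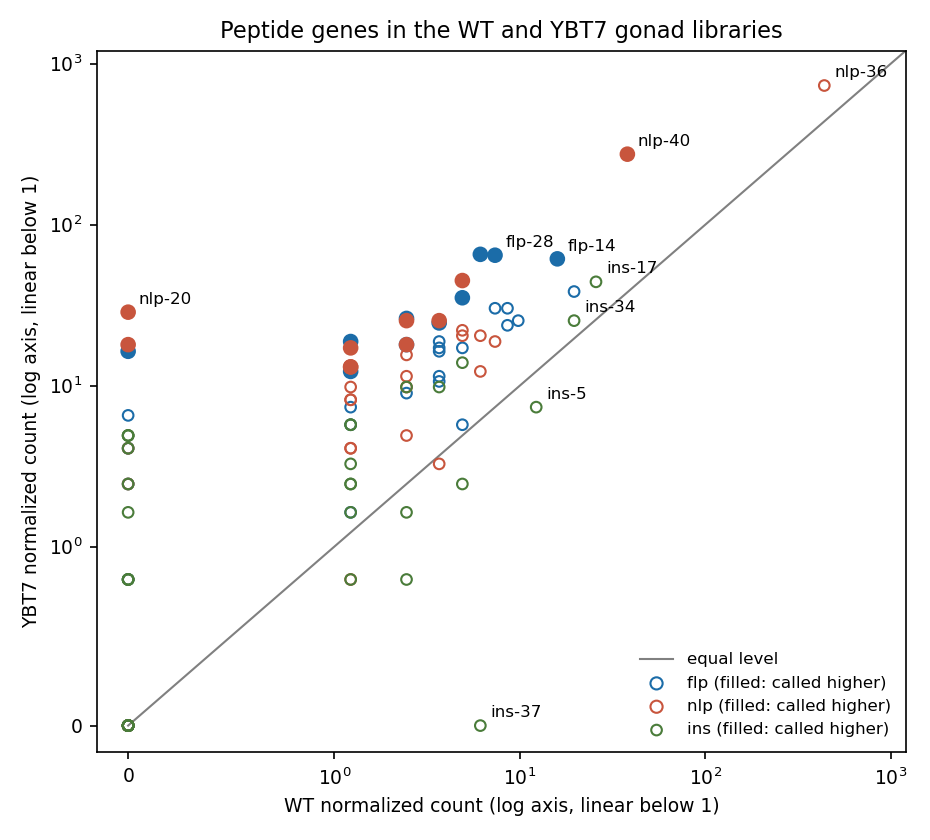
Normalized count of each of the 103 peptide genes in wild type (WT, x axis) and YBT7 (y axis), on log axes that turn linear below 1, with flp in blue, nlp in red and ins in green and with filled points for genes called higher. Genes with few counts share positions. Of the 86 genes with a count, 78 lie above the line of equal level, and ins-37 is the 1 gene with counts in wild type alone.

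Among the nlp genes, nlp-40 (chromosome I from 10413 to 16842 in WBcel235) had 335 counts in YBT7 against 31 in wild type. It was 7.20-fold higher (interval 4.98 to 10.8). NLP-40 is known as a peptide that the intestine releases to time the defecation cycle through the receptor AEX-2. The most abundant member, nlp-36 (chromosome III from 9488618 to 9489186), had 357 and 894 counts. Its fold of 1.67 (1.48 to 1.89) lay above 1 by counting but its log2 fold of 0.74 fell short of the limit of 1.21. These 2 genes had the highest levels in both libraries and moved by different amounts.

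No count was seen in wild type for nlp-20, at 35 in YBT7, or for nlp-3, at 22, a gene that acts in egg laying. Against a floor of 3 counts in the wild-type library they were at least 7.78-fold and 4.89-fold higher, a bound that takes the YBT7 count as exact. Their exact intervals, which count the error of both libraries, began at 6.0 and 3.65. The X-linked gene nlp-6 (X from 17662458 to 17665357) went from 4 counts to 55, 9.17-fold higher (3.38 to 34.8). For the other called nlp genes the wild-type library held 1 to 3 counts, so their ratios are loose: nlp-21 had 2 counts against 31, nlp-14 had 3 against 31, nlp-10 had 2 against 22, nlp-9 had 1 against 21, and nlp-17 and nlp-35 each had 1 against 16. Of these, nlp-14 is known for its part in stress-induced sleep. The lowest lower limit in this group was 1.66, for nlp-17 and nlp-35, and the calls of nlp-10, nlp-17 and nlp-35 ended with a pseudocount of 1 (log2 folds of 2.46, 2.66 and 2.66).

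The remaining 10 measured nlp genes, not called, had folds from 1.67 for nlp-36 to 8.0 for nlp-15, which had 1 count against 12. The nlp-39 gene stood closest to the limit, with 2 counts against 19 and a log2 fold of 2.66 against a limit of 2.67, and was called with TMM, upper quartile or autosomal scaling and with thinned YBT7 counts. Others were nlp-47 with 4 counts against 27, nlp-13 with 5 against 25 and nlp-18 with 6 against 23. The cholecystokinin-like gene nlp-12, known for its part in proprioception and locomotion, had 5 and 15 counts and a fold of 2.0 (0.691 to 7.03).

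The flp gene with the largest lower limit of the fold was flp-6 (chromosome V from 9471973 to 9473808), with 80 counts in YBT7 against 5 in wild type, 10.7-fold higher (4.39 to 33.7). Next came flp-28 (X from 10087346 to 10087958), with 6 counts against 79 and 8.78-fold higher (3.86 to 24.6). No wild-type count was found for flp-15, at 20 in YBT7 and at least 4.44-fold higher against the floor, with an exact interval that began at 3.29. The gene flp-9 had 4 counts against 43, 7.17-fold higher (2.60 to 27.5). The gene flp-14 (chromosome III from 12910229 to 12914934) had 13 counts and 75, 3.85-fold higher (2.12 to 7.56), the smallest fold of any called peptide gene, and a fixed 4-fold limit would leave it out. Of these 5 genes, flp-14 had the most wild-type counts.

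The X-linked genes flp-12 and flp-19 had a single wild-type count each, against 23 and 15 in YBT7, and flp-33 had 2 against 32. FLP-18 and FLP-21 are ligands of the receptor NPR-1, known for its control of feeding groups and oxygen responses. Their genes had 3 counts against 30 and 2 against 22, ratios of 6.67 (2.07 to 34.1) and 7.33 (1.80 to 64.3). Both calls ended when the YBT7 counts were thinned to the wild-type total, where flp-19 fell under the minimum mean. With a pseudocount of 1 the calls of flp-19 and flp-21 ended.

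The other 13 measured flp genes were not called, with folds from 1.17 to 5.11, and all 13 stood higher in YBT7. The gene with the most wild-type counts of the family, flp-10, had 16 counts and 47, a fold of 1.96 (1.09 to 3.70). Its product and that of flp-17, which had 2 counts against 11, are ligands of EGL-6, a receptor that inhibits egg laying. The gene flp-1, known from locomotion, had 8 counts against 31, and flp-13, which acts in stress-induced sleep, had 7 against 29. The gene flp-11, known for its part in sleep from the neuron RIS, had 6 against 37 and a fold of 4.11 (1.72 to 11.9). The smallest difference was that of flp-25, with 4 counts and 7 and a fold of 1.17 (0.297 to 5.43).

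**Figure D3:**
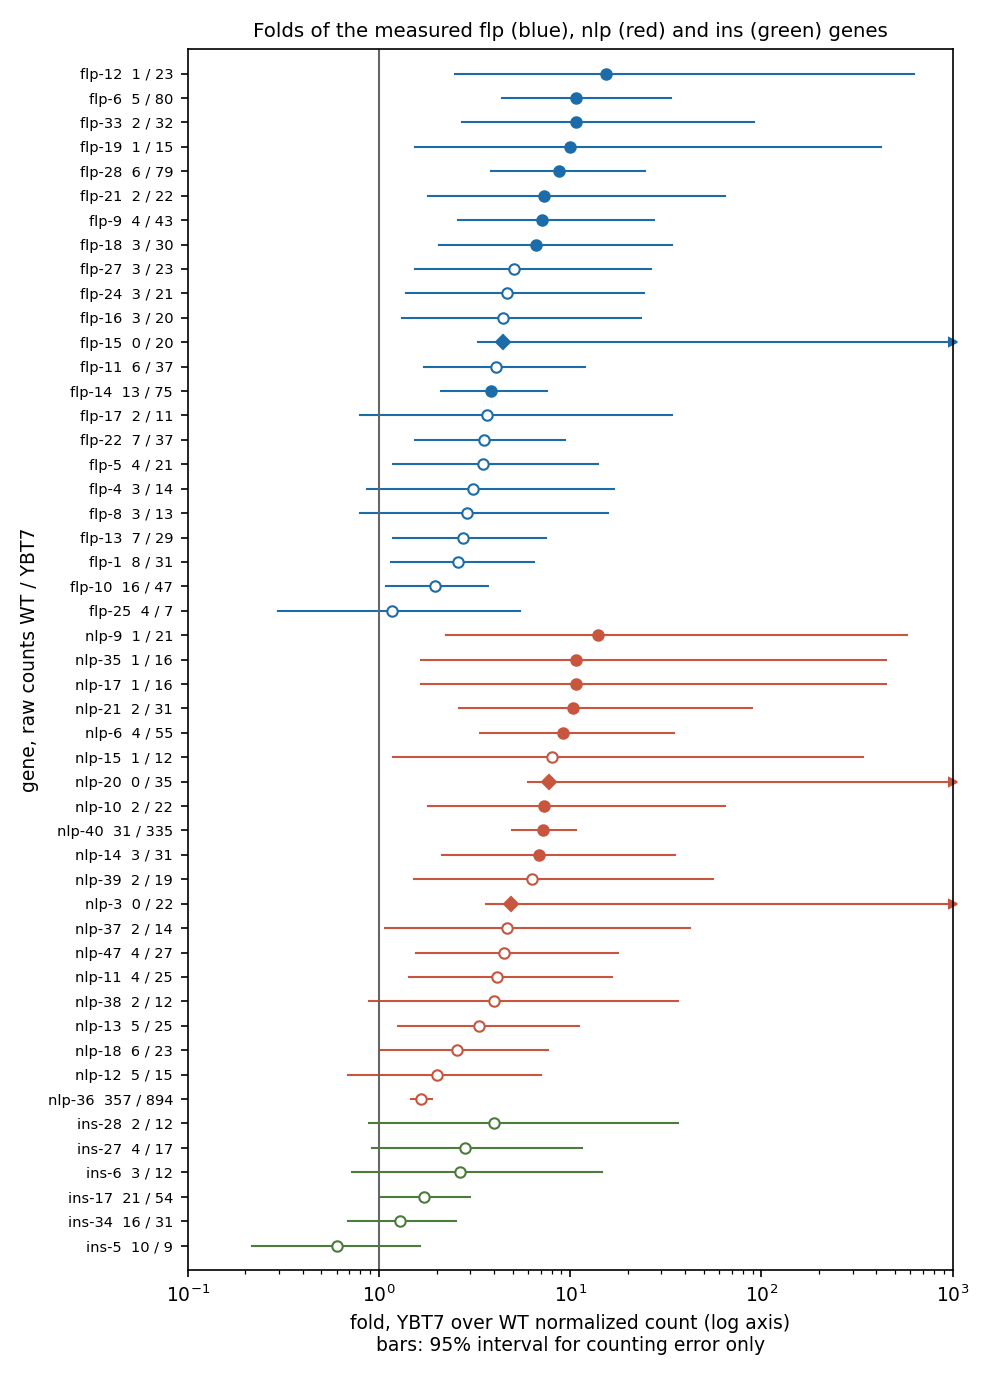
Fold of YBT7 over wild type (WT) for the 49 measured peptide genes on a log axis, with 95% counting intervals and the raw counts beside each name. Filled symbols are genes called higher, and diamonds are folds against a floor of 3 counts for genes without a wild-type count, whose intervals have no upper end (arrows). Intervals of 19 of 23 flp genes, 18 of 20 nlp genes and 1 of 6 ins genes lie above 1.

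Over the whole set the lower limit of the counting interval was above 1 for 38 of the 49 measured genes, beside 22.7% of all measured genes. Of the 33 that passed the filter through YBT7 alone it was 25 (75.8%), beside 67.4% of all genes that passed in this way, and of the 16 above 5 in wild type it was 13, beside 17.1% of all such genes. This count takes each interval alone and is not adjusted for their number.

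The 3 ins genes above 5 normalized counts in wild type had folds under 2. The gene with the highest level, ins-17 (chromosome III from 4476888 to 4477583), had 54 counts in YBT7 against 21 in wild type, a fold of 1.71 (1.02 to 2.99). The gene ins-34 had 16 counts and 31, a fold of 1.29 (0.685 to 2.53). The gene ins-5 (chromosome II from 5998443 to 5999019) had 10 counts and 9, and its log2 fold of -0.74 was the single value below 0 among measured peptide genes, although its interval of the ratio ran from 0.216 to 1.64. Of the other measured ins genes, ins-6, a DAF-2 agonist in the control of dauer arrest, had 3 counts against 12, ins-27 had 4 against 17, and ins-28 had 2 against 12. None of the 6 was called.

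Low ins genes are shown by counts only. The gene ins-37 (chromosome II from 13835102 to 13835665) had 5 wild-type counts and none in YBT7, and was the single peptide gene called lower when the minimum mean was set to 2. The same setting called ins-3, ins-18, ins-26 and ins-30 higher, from 0 counts to 5 or 6. All of these genes lack a count in 1 of the libraries, so their log2 folds are infinite and exceed any limit. The gene ins-7, known as a DAF-2 agonist of the intestine, had 1 count against 7. No count was seen in either library for ins-11, ins-12 or ins-31. Without ins-17, ins-34 and ins-5, the other 36 ins genes went from 29 to 106 counts, 2.32-fold in CPM (1.53 to 3.63). This interval ends just under the lower end of that of the flp genes, at 3.64. The genes left out are the 3 ins genes above 5 normalized counts in wild type, and leaving out such genes tends to raise the ratio of the rest.

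Many ins genes lie in tight groups. Runs of peptide genes with gaps of at most 20 kb numbered 10, of which 7 held ins genes. The run with the most genes held 7 over 25.4 kb on chromosome I, ins-24 to ins-30, which went from 8 counts to 51, 4.05-fold in CPM (1.91 to 9.88). The run of 6 genes on chromosome II that holds ins-2 to ins-6 and ins-20 went from 15 counts to 32, and 10 of those wild-type counts were of ins-5. The run ins-21, ins-22 and ins-23 on chromosome III had 6 counts and 4. Related genes in such runs can share reads that the counting leaves out, so single ins values are uncertain.

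The peptide genes were spread over all 6 chromosomes, with 25 on X, of which 13 are flp, 10 nlp and 2 ins genes. On X, 7 of 11 measured peptide genes were called higher, beside 18.8% of all measured X-linked genes. On the autosomes it was 13 of 38, beside 8.25% of measured autosomal genes. In the range of means from 5 to 50, 17.6% of X-linked and 17% of autosomal genes were called higher, and the same 7 of 11 X-linked and 12 of 36 autosomal peptide genes. These shares rest mostly on genes that passed the filter through YBT7 alone, which were 9 of the 11 X-linked and 24 of the 38 autosomal genes. Above 5 in wild type, 1 of 2 X-linked and 3 of 14 autosomal peptide genes were called. The difference between X-linked and autosomal peptide genes was not tested, and the ins genes, of which none was called, are almost all autosomal. Without the ins genes, 13 of 32 measured autosomal flp and nlp genes were called.

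Both X segments held called peptide genes. On the internal segment 4 of 6 were called, flp-19, flp-28, nlp-3 and nlp-14, beside 17% of measured genes there, and the 13 peptide genes of that segment went from 20 counts to 208. On the linear segment 3 of 5 were called, flp-12, flp-18 and nlp-6, beside 20.6% of measured genes there, and its 12 peptide genes went from 20 counts to 183. Of the measured genes, only flp-28 on the internal and flp-11 on the linear segment were above 5 normalized counts in wild type. The other 9 passed the filter through YBT7 alone, and 6 of these were called, beside 49.3% of all genes that passed in this way. The shares of all measured genes in each segment are thus not like for like.

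The genes next to the peptide genes were called at no higher share than genes in general. The nearest measured gene on each side of the 49, 92 genes in all and none of them a peptide gene, held 7 genes called higher (7.61%) and 2 lower, with a median log2 fold of 0.02. Of the 103 peptide genes, 22 overlap another gene of the table, 4 of them on the same strand: flp-17, nlp-5, nlp-47 and ins-13. Among called genes flp-28 and nlp-35 overlap a gene on the other strand. By the Ensembl annotation of the same assembly 102 of the 103 are protein coding and ins-38 is a pseudogene. Their median coding length is 307.5 bases.

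Some genes that make peptides from precursors were higher as well. Of 11 measured processing genes 3 were called higher and none lower, beside 9.55% called higher of all measured genes. The median log2 fold of the 11 was 1.20, with 8 genes above 0 and 3 below. They were sbt-1, the chaperone of the convertase EGL-3, with 15.9 and 88.2 normalized counts and 5.54-fold higher (3.11 to 10.7), egl-21, a carboxypeptidase E, with 17 against 86, and pgal-1, an enzyme of amidation, with 3 against 31. The convertase gene egl-3 had 18 counts against 62, a fold of 2.30 (1.34 to 4.12), and was not called. The 3 processing genes below 0 were cpd-1, bli-4 and kpc-1. The gene cpd-1 had 42 counts and 27, a fold of 0.429 (0.254 to 0.712). For bli-4 the counts were 487 and 555, a fold of 0.760 (0.671 to 0.860), and for kpc-1 16 and 16, a fold of 0.667 (0.312 to 1.42). Of the 9 measured genes for dense core vesicles and their release none was called, the median log2 fold was 0.22, and ida-1, a vesicle membrane protein gene, had 3 counts and 9. The median of the vesicle genes was thus closer to that of all genes than that of the processing genes.

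Receptors were hardly present. The 96 genes for peptide receptors held 98 and 171 counts, 1.11-fold in CPM (0.859 to 1.43), and 40 of them had no count. The 1 called higher of the 4 measured was pdfr-1, the receptor of pigment dispersing factor peptides, with 2 counts against 25 and a ratio of 8.33 (2.08 to 72.6). Genes of its ligands are pdf-1, with 11 counts against 58, and nlp-37, also known as pdf-2, with 2 against 14, neither of them called. The receptor gene egl-6 went from 22 counts to 18, a fold of 0.545 (0.276 to 1.07). Of 12 measured genes of the insulin pathway 1 was called higher, the kinase gene sgk-1, with 1 count against 23, and the median log2 fold was -0.27. The receptor gene daf-2 had 29 counts and 38, a fold of 0.874 (0.525 to 1.47), and the transcription factor gene daf-16 had 283 and 358, a fold of 0.843. Of 8 measured neprilysin and dipeptidyl peptidase genes 3 were called higher, among them nep-17 with 2 counts against 61.

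**Figure D4:**
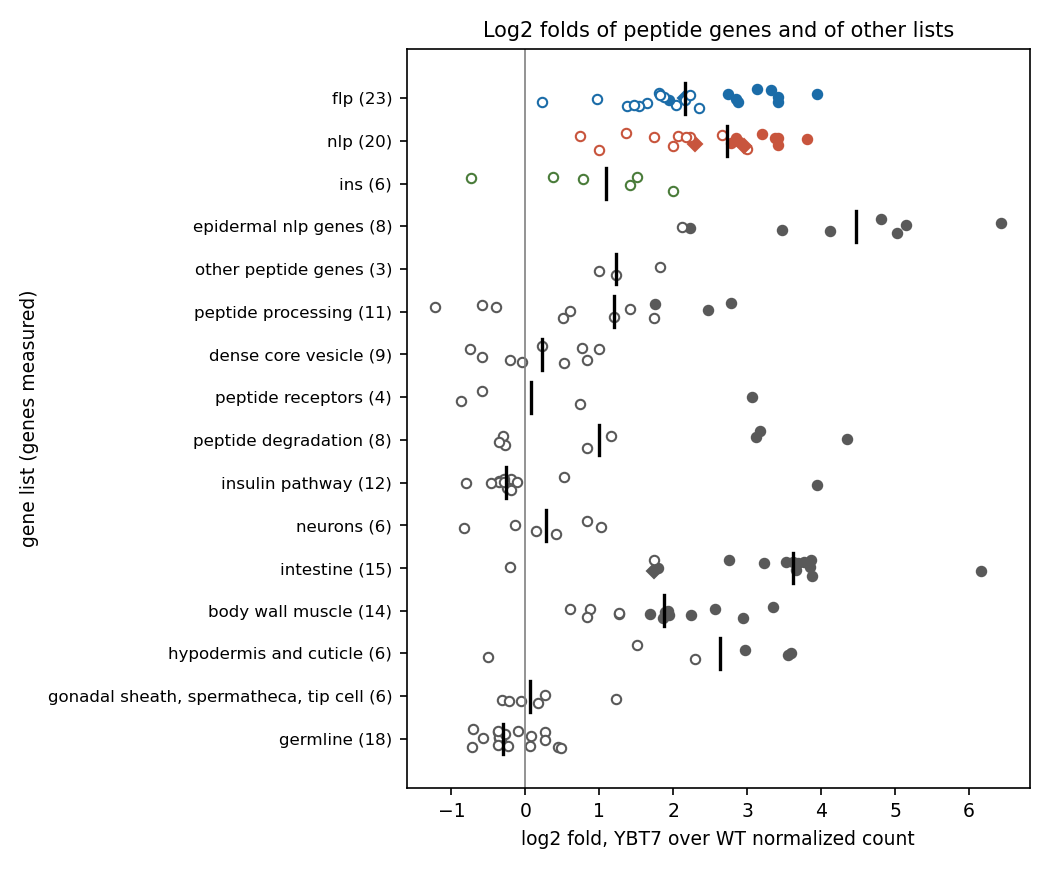
Log2 fold of YBT7 over wild type for each measured gene of the peptide families and of other lists, with the number measured in parentheses. Black bars are medians with zeros at their floor, filled points are called genes, and diamonds are genes without a wild-type count, placed at their floor of 3 counts. The medians lie at 2.15 for flp, 1.20 for processing, 0.22 for dense core vesicle, 0.28 for neuron and -0.30 for germline genes.

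Levels of other tissue markers ran beside the peptide genes. Of neuron markers none of the 6 measured was called, and the summed level stood at 419 and 426 CPM. This sum rests mainly on snb-1, with 965 and 1596 counts. Markers of this list differed in level. No count was seen in either library for rgef-1, while rab-3 had 6 and 12 counts and snt-1 had 0 and 5. Higher levels were seen for unc-119, with 89 and 75 counts, ric-7, with 107 and 145, and unc-11, with 22 and 67. Without the 4 most abundant genes, a choice made after the values were seen, the other 15 held 22 counts and 47, 1.36-fold in CPM (0.801 to 2.36). This interval lies below that of the flp genes and that of the nlp genes other than nlp-36 (4.75 to 7.51). It overlaps that of all 33 nlp genes, a sum that keeps its most abundant gene.

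Markers of intestine, body wall muscle and cuticle were higher in YBT7, as the peptide genes were. In the intestine list 13 of 15 measured genes were called higher, with sums of 1031 and 11181 CPM, and in the muscle list 9 of 14, with 477 and 1882 CPM. In the list of hypodermis and cuticle it was 3 of 6, with 162 and 1605 CPM. The 3 coelomocyte genes went from 0 to 22 counts. The antimicrobial genes nlp-24 to nlp-34 went from 43 counts to 831, and 7 of their 8 measured genes were called higher. Markers of gonadal sheath, spermatheca and distal tip held 339 and 333 CPM with no call, and the glia list held 3 counts and 5. Sperm markers went the other way, from 236 counts to 83, with 5 of 7 measured genes called lower. The germline list was also lower in YBT7, at 12841 and 11102 CPM, with none of its 18 measured genes called. The part of other tissues in the peptide counts was not tested, and with 1 library each the strain and the dissection cannot be told apart.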

How the data were processed

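First-strand synthesis used a poly(T) primer with a molecular identifier, and T7 transcription amplified the product, which favours the ends of transcripts. The authors trimmed reads with cutadapt (1.12), aligned them to WBcel235 with TopHat2 (2.1.1) and counted reads per gene with HTSeq (0.6.0). The deposited raw counts were used. Whether identifiers were collapsed is not given in the sources used here. The authors' normalized values, log2 fold changes and decisions, computed with DESeq2 (1.12.4), were not used.

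Size factors were medians of ratios, taken where both libraries together reach 3 counts. Intervals of ratios are exact conditional (Clopper-Pearson) ones and those of sums exact Poisson ones, at 95%. Single genes were scaled by size factors, and sums as CPM. Segments follow the internal borders at 7772344 and 16511093 on X. The members and lists were chosen with earlier results of these data known. Named genes are measured members, low members of a stated kind, and up to 4 genes of other lists, called ones first. The genes egl-3, cpd-1, bli-4, kpc-1, ida-1, daf-2, rgef-1, rab-3, snt-1, unc-119, ric-7 and unc-11 were added after their values were seen. The calling rule was checked on simulated data that held counting error alone. That check thus cannot show how often unchanged genes are called when worms, dissections or amplification vary. Tools were Python 3.11.15, numpy 2.4.6, scipy 1.17.1, R 4.3.3 and edgeR 4.0.16. Depth was 2873065 and 4525439 counts.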

Additional observations from a re-analysis of the deposited data

How the results depend on the processing

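The 4 other scalings (TMM, upper quartile, total counts, autosomal size factors) kept all 20 calls of peptide genes, and the log2 fold of each measured member with counts in both libraries kept its sign under each alternative in which it was measured. The median log2 fold of all measured genes was -0.10 with total counts. A fixed 2-fold limit called 42 of 49 peptide genes higher, 11 X-linked and 31 autosomal, beside 17.2% of all measured genes. A minimum mean of 20 left 10 measured peptide genes and called 6, of which 2 are X-linked and 4 autosomal, beside 6.89% of all genes. With a wild-type normalized count above 5, chosen after seeing the data, 4 of 16 were called, 1 X-linked and 3 autosomal, beside 4.58% of all such genes. The median log2 fold of the 16 was 1.42. A minimum mean of 2 called 27 of 70 peptide genes higher and 1 lower, beside 11.4% of all genes called higher. A pseudocount of 1 kept 15 of the 20 calls and thinned YBT7 counts kept 17. Without nlp-36 the summed level rose 4.15-fold in place of 2.69-fold. Leaving out replicates was not possible, since each strain has 1 library. No paired analysis was possible because there is 1 library per strain. Depth limits low genes, as 78 of the 103 had at most 3 wild-type counts.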
